A study of Mus musculus with 18 samples.

Results

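The transcripts of 10 CC chemokine ligands were followed through immune cells sorted from atherosclerotic mouse arteries. The ligands are Ccl2, Ccl3, Ccl4, Ccl5, Ccl6, Ccl7, Ccl8, Ccl9, Ccl12 and Ccl24, taken by gene symbol and not by their levels. All 10 were found among the 23337 genes of the count table, and all 10 were among the 17143 genes with enough reads to be tested. The libraries came from 7-month-old male and female C57BL/6 mice that lacked Apoe and carried Cx3cr1GFP and Cd11cYFP, after 5 months of Western Diet. Every group therefore shares the Apoe-/- background, the diet and both reporters. Aortas and carotid arteries were digested, and live (7AAD-) CD45+ cells were sorted by reporter into GFP-YFP+ cells (YFP, n = 5 libraries), GFP+YFP+ cells (DP, n = 4), GFP+YFP- cells (GFP, n = 6) and GFP-YFP- cells (DN, n = 3). The gates used reporters driven by Cx3cr1 and by Cd11c (Itgax), which monocytes, macrophages and dendritic cells share, and CD45, which all leukocytes carry, so no gate held macrophages alone. The labels did not say whether libraries came from separate mice, so p-values measure the spread between these libraries, which may be technical.

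CC chemokines are small secreted proteins, named for a pair of adjacent cysteines, that draw leukocytes along a gradient by binding G protein-coupled receptors. In atherosclerosis they are best known for bringing monocytes from blood into the artery wall, above all through Ccl2 and its receptor Ccr2. Macrophages are a main source of them, and most of the genes answer to inflammatory signals such as NF-kB. In the mouse, most of the genes lie in clusters on chromosome 11.

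That arrangement was seen for 9 of the 10 ligands, in mm10 coordinates. Ccl2 (82035571 to 82037453), Ccl7 (82045712 to 82047525), Ccl12 (82101845 to 82103400) and Ccl8 (82115185 to 82116799) lay on the plus strand of chromosome 11. Ccl5 (83525778 to 83530518), Ccl9 (83572919 to 83578636), Ccl6 (83587882 to 83593087) and Ccl3 (83647844 to 83649355) lay on its minus strand, followed by Ccl4 (83662584 to 83664683) on the plus strand. Ccl24 lay apart on chromosome 5 (135569937 to 135573049, minus strand). Among neighbours of the set, 8.26 kb separated Ccl2 from Ccl7, 9.24 kb Ccl9 from Ccl6, 11.8 kb Ccl12 from Ccl8 and 13.2 kb Ccl3 from Ccl4. Over 17 libraries Spearman's rho of their levels was 0.924, 0.904, 0.485 and 0.926, so 3 of these 4 pairs of close neighbours were the most alike pairs of the set and Ccl12 with Ccl8 was not.

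For Ccl6 and Ccl9, whose levels moved together and stood far apart between libraries, the 250 bases before each gene's start are shown (RefSeq, build GRCm38.p6, minus strand, 5′ to 3′). The Ccl6 window is chr11:83593088-83593337 and the Ccl9 window chr11:83578637-83578886. Capitals mark runs of at least 11 bases found in both windows.
Ccl6: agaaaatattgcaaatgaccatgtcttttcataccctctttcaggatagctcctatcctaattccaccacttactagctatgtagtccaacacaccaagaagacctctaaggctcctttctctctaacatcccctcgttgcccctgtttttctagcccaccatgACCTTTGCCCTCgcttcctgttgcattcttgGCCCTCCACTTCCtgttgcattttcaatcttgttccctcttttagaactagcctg
Ccl9: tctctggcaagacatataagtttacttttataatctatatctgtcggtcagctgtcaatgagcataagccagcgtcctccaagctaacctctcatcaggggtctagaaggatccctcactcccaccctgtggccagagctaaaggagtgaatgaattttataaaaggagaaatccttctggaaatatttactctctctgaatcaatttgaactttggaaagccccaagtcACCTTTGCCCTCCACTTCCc
The longest run shared by both windows had 13 bases. The runs covered 25 bases in Ccl6, in 2 separate stretches, and 19 bases in Ccl9, in 1 stretch close to the start. Promoter entries were found for 5 of the 10 ligands (Ccl3, Ccl6, Ccl8, Ccl9 and Ccl12), and no other pair of them shared a run of 11 bases. The windows were searched on both strands for TGANTCA (AP-1), GAGGAA (PU.1), the interferon-stimulated response element (GAAA, any 2 bases, GAAA) and the NF-kB motif, and no matches of different motifs overlapped. The Ccl9 window held 1 AP-1 match and 1 NF-kB match, which 6.75% and 7.25% of all 32851 promoter windows hold. The windows of Ccl3, Ccl8 and Ccl12 held 1 PU.1 match each, as 23.3% of windows do, and the Ccl6 window held none of the 4 motifs. No window of the 5 held the interferon-stimulated response element, which 2.98% of windows hold.

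Total counts ranged from 10644558 to 27742113 in 16 libraries. DP 2 had 9790946 and YFP 6 had 289166, so that 1 read of YFP 6 is worth 2.985 CPM (counts scaled to a common library size of 1e6 after TMM normalization). Libraries are named here by subset and replicate number. Libraries numbered 1 and 2 held reads of 19245 to 21972 genes and those numbered 3 to 6 of 13150 to 18961. Cx3cr1 and Itgax, the genes behind the reporters, went against the labels in 5 libraries. The libraries labelled DP 4 and DP 5 held at most 9.43 CPM of Cx3cr1 and 47.8 CPM of Itgax, and those labelled DN 3 and DN 6 held at least 134 and 297 CPM. YFP 6, the shallow library, held 89.6 CPM of Itgax, below the 107 to 191 CPM of the GFP libraries. Its 104.5 CPM of Cx3cr1 lay within their 80.9 to 165 CPM. Over all 5 YFP libraries, Cx3cr1 ran from 0.93 to 104.5 CPM with a median of 60.0 CPM, so libraries sorted as GFP- also held its transcript. The 4 of DP and DN enter every value given for those subsets, and values without them are given where they change a result. Leaving out YFP 6 as well, an alternative chosen after seeing the data, left no ligand called in any comparison and turned no sign of YFP over GFP. DP 5 and YFP 5 had the smallest TMM factors, 0.533 and 0.445, which raise all their CPM values. Summed over 10 pan-macrophage markers, DN 1 held 1998 CPM and the other 17 libraries 10280 to 130100 CPM. Fewer cells of a type and less RNA per cell cannot be told apart in such bulk libraries.

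Per transcript length, Ccl4 stood highest of the 10 ligands in the means of YFP, GFP and DN libraries, with 3631, 4867 and 3261 RPKM (CPM per kilobase of exon). In DP libraries the mean of Ccl6 was highest, at 5298 RPKM, and it rested on the library labelled DP 5 (19307 RPKM). The lowest mean was that of Ccl5 in YFP and DP libraries, at 27.4 and 16.3 RPKM, and that of Ccl24 in GFP and DN libraries, at 13.9 and 2.47 RPKM. Between subsets, the mean CPM was highest in GFP for 4 ligands (Ccl2, Ccl4, Ccl7 and Ccl12), in DP for 5 (Ccl3, Ccl6, Ccl8, Ccl9 and Ccl24) and in DN for Ccl5. All 5 DP ranks rested on the library labelled DP 5. Without it the DP means were 1182, 1127, 41.3, 244 and 13.8 CPM, and the highest mean was that of GFP for Ccl3 and of YFP for the other 4. Without TMM the mean of Ccl3 was highest in GFP (1976 CPM), against 1721 CPM in DP. Summed over the 10 ligands, levels ran from 1631 to 22336 CPM in YFP libraries, from 4209 to 52987 CPM in DP, from 4672 to 13345 CPM in GFP and from 1265 to 9472 CPM in DN. The lowest sums were those of DN 1 and YFP 1, and the highest those of the libraries labelled DP 5 and YFP 5. As a share of all counts, without TMM, DP 5 was still highest, at 2.822%, but YFP 5 (0.993%) lay below GFP 3 (1.175%), GFP 5 (1.15%) and YFP 3 (1.075%).

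**Figure D1:**
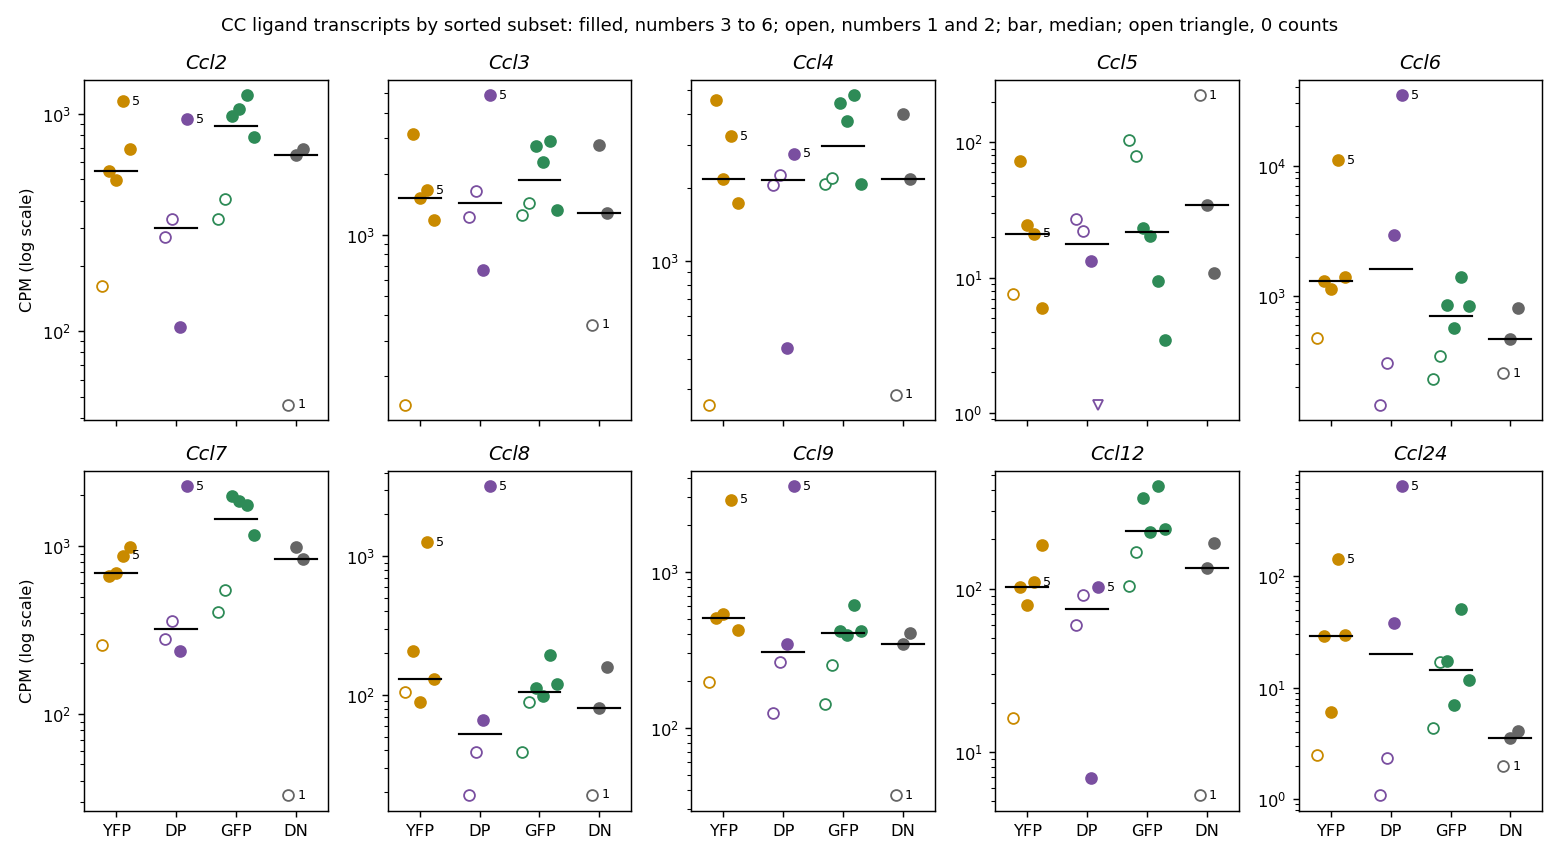
Levels of the 10 CC ligands in each of the 18 libraries, in CPM on a log axis, by sorted subset (YFP, DP, GFP, DN); points are libraries (open for replicate numbers 1 and 2, filled for 3 to 6), bars are medians, and the open triangle marks Ccl5 at 0 counts in DP 5. Ccl6, Ccl8, Ccl9 and Ccl24 stand highest in DP 5 and next in YFP 5, whereas Ccl2 and Ccl12 stand highest in GFP 5, with TMM scaling and without.

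No ligand passed the test over the 4 subsets or in any of the 6 pairs of subsets (edgeR quasi-likelihood test, Benjamini-Hochberg adjustment over 17143 genes, threshold 0.05). Few genes of any kind did. Over the 4 subsets 0.332% of all tested genes passed and in DP against GFP 0.198%, and in each of the other 5 pairs 0%. Of simulated 4-fold changes, 6% were called in YFP against GFP, so changes of that size would mostly be missed. At an unadjusted p under 0.05, 3 of the 10 ligands stood out over the 4 subsets, beside 6.96% of all genes. They were Ccl6 (adjusted p = 0.188), Ccl24 (adjusted p = 0.261) and Ccl8 (adjusted p = 0.594). In the 6 pairs, 0 of 10 ligands had an unadjusted p under 0.05 in YFP against DP (6.73% of all genes), 1 in YFP against GFP (7.02%), 1 in YFP against DN (2.69%), 4 in DP against GFP (6.84%), 4 in DP against DN (2.71%) and 0 in GFP against DN (1.35%). The 4 in DP against GFP were Ccl6, Ccl8, Ccl12 and Ccl24, and those in DP against DN were Ccl5, Ccl6, Ccl8 and Ccl24. The 1 in YFP against GFP was Ccl6 and the 1 in YFP against DN was Ccl24. With DESeq2 in place of edgeR, Ccl6 passed in DP against GFP (log2 fold change of 4.21, adjusted p = 0.00219, 2.05% of genes called), in DP against DN (4.62, adjusted p = 0.0457, 0.146%) and over the 4 subsets (adjusted p = 0.00292, 2.5%).

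The replicate numbers split the libraries. Among those numbered 1 and 2, YFP 1 and DN 1 are the sole libraries of their subsets and are assumed to vary like the pairs of DP and GFP, so their comparisons set 1 library against others and do not show a difference between subsets. There 9 of the 10 ligands had an adjusted p under 0.05 over the 4 subsets, beside 18.1% of all genes. By pair the count was 5 in YFP against DP (8.15%), 4 in YFP against GFP (7.83%), 6 in YFP against DN (9.84%), 2 in DP against GFP (1.33%), 7 in DP against DN (14.1%) and 8 in GFP against DN (12.5%). The 4 in YFP against GFP were Ccl3, Ccl4, Ccl5 and Ccl12, each lower in YFP 1. Among libraries numbered 3 to 6, Ccl6 alone passed over the 4 subsets (1.17% of all genes) and in DP against GFP.

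The ligands of Ccr2 come first. Ccl2, the main ligand of Ccr2 and the classical attractant of monocytes, had 162, 544, 498, 1148 and 690 CPM in YFP libraries (replicates 1, 3, 4, 5 and 6) and 272, 327, 105 and 945 CPM in DP (replicates 1, 2, 4 and 5). GFP libraries ran from 329 to 1222 CPM with a median of 880 CPM, and DN libraries had 46.0, 647 and 687 CPM (replicates 1, 3 and 6). DN 1, YFP 1 and the library labelled DP 4 were the lowest of their subsets, and all 4 ranges overlapped. The log2 fold change of YFP over GFP was -0.39 ± 0.61 (SE, edgeR adjusted p = 0.977). Its sign was not stable, with 0.14 without YFP 1.

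Ccl7, which in addition to Ccr2 binds Ccr1 and Ccr3, had 259, 666, 695, 876 and 985 CPM in YFP libraries and 281, 357, 238 and 2274 CPM in DP. In GFP libraries it ran from 406 to 1989 CPM with a median of 1455 CPM, and in DN it had 32.7, 981 and 841 CPM. The 4 GFP libraries numbered 3 to 6 stood above every YFP library, and GFP 1 and GFP 2 lay within the YFP range. The library labelled DP 5 was the highest of all 18. Both depended on the scaling, since without TMM DP 5 (1211 CPM) lay below GFP 3, GFP 4 and GFP 5 (1956, 1639 and 1508 CPM) and YFP 6 (1141 CPM) above GFP 6 (1067 CPM). YFP over GFP gave a log2 fold change of -0.89 ± 0.68 (SE, edgeR adjusted p = 0.954).

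Ccl12, a mouse ligand of Ccr2, also had its highest levels in GFP libraries. It had 16.2, 103, 79.7, 109 and 185 CPM in YFP libraries and 59.6, 90.9, 6.90 and 102 CPM in DP. In GFP libraries it ran from 104 to 425 CPM with a median of 226 CPM, and DN had 5.39, 133 and 190 CPM. Every DP library lay below every GFP library, as in 0.77% of all tested genes. Means were 64.7 ± 42.5 CPM in DP and 251 ± 120 CPM in GFP (SD, n = 4 and 6), with a log2 fold change of -1.96 ± 0.78 (SE, edgeR adjusted p = 0.493). Without DP 4, DP 5, DN 3 and DN 6 the value was -1.43, with DP 1 and DP 2 alone left in DP. YFP libraries averaged 98.6 ± 60.8 CPM (SD, n = 5), and the log2 fold change of YFP over GFP was -1.37 ± 0.70 (SE, edgeR adjusted p = 0.736), between -1.71 and -0.92 with each library left out.

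Ccl8 lies beside Ccl12 on the chromosome and is in the mouse known as a ligand of Ccr8. It had 105, 209, 89.0, 1255 and 131 CPM in YFP libraries and 19.0, 39.0, 65.9 and 3198 CPM in DP. GFP libraries ran from 38.9 to 194 CPM with a median of 106 CPM, and DN had 19.3, 80.7 and 159 CPM. YFP 5 and the library labelled DP 5 stood far above the other 16 libraries, in which 209 CPM was the highest level. The log2 fold change of YFP over GFP was 1.72 ± 1.0 (SE, edgeR adjusted p = 0.816), and 0.38 without YFP 5. That of DP over GFP was 2.93 ± 1.07 (adjusted p = 0.410) and that of DP over DN 3.27 ± 1.42 (adjusted p = 0.9998). Without DP 5 they were -1.16 and -0.84, so that the sign of both rested on this library.

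Ccl3 and Ccl4, also known as macrophage inflammatory proteins, had the highest mean levels per length in YFP, GFP and DN libraries. Ccl3, which binds Ccr1 and draws monocytes and T cells, had 145, 3138, 1517, 1655 and 1179 CPM in YFP libraries and 1225, 1651, 671 and 4877 CPM in DP. In GFP libraries it ran from 1247 to 2907 CPM with a median of 1861 CPM, and DN had 360, 2783 and 1286 CPM. YFP 1 and DN 1 stood lowest, with overlap among all subsets. The library labelled DP 5 was highest with TMM, but without TMM (2597 CPM) it lay below YFP 3, GFP 3 and DN 3 (3027, 2708 and 2680 CPM).

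Ccl4, which is usually made together with Ccl3, had 260, 4571, 2167, 3249 and 1738 CPM in YFP libraries and 2052, 2246, 443 and 2755 CPM in DP. GFP libraries ran from 2065 to 4771 CPM with a median of 2962 CPM, and DN had 285, 3997 and 2174 CPM. The same libraries were low as for Ccl3, joined by the library labelled DP 4, while the library labelled DP 5 lay within the GFP range. Without TMM, DP 5 (1468 CPM) lay below every GFP library, of which GFP 6 (1899 CPM) was the lowest. Log2 fold changes of YFP over GFP were -0.38 ± 0.61 for Ccl3 and -0.42 ± 0.61 for Ccl4 (SE, edgeR adjusted p = 0.977 for both), and 0.051 and 0.048 without YFP 1. Among libraries numbered 1 and 2 alone, where YFP 1 is the sole YFP library, they were -3.03 and -2.86. Among those numbered 3 to 6 they were -0.27 and -0.33 (adjusted p = 0.962 for both).

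The ratio of Ccl3 to Ccl4 reads separated 3 libraries from the rest. It lay between 0.509 and 0.735 in 15 libraries, with a median of 0.619. It was 1.51 in the library labelled DP 4, 1.77 in that labelled DP 5 and 1.26 in DN 1. These were the 3 libraries in which the neutrophil list reached its highest summed levels, 2009, 38900 and 1687 CPM, beside 29.2 to 1036 CPM in the other 15. S100a8 and S100a9 of this list, which encode calprotectin, had 5333 and 4104 CPM in DP 5. All 9 matched neutrophil markers had reads in these 3 libraries and in 12 of the other 15. The part of neutrophil RNA in the ratio was not tested.

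**Figure D2:**
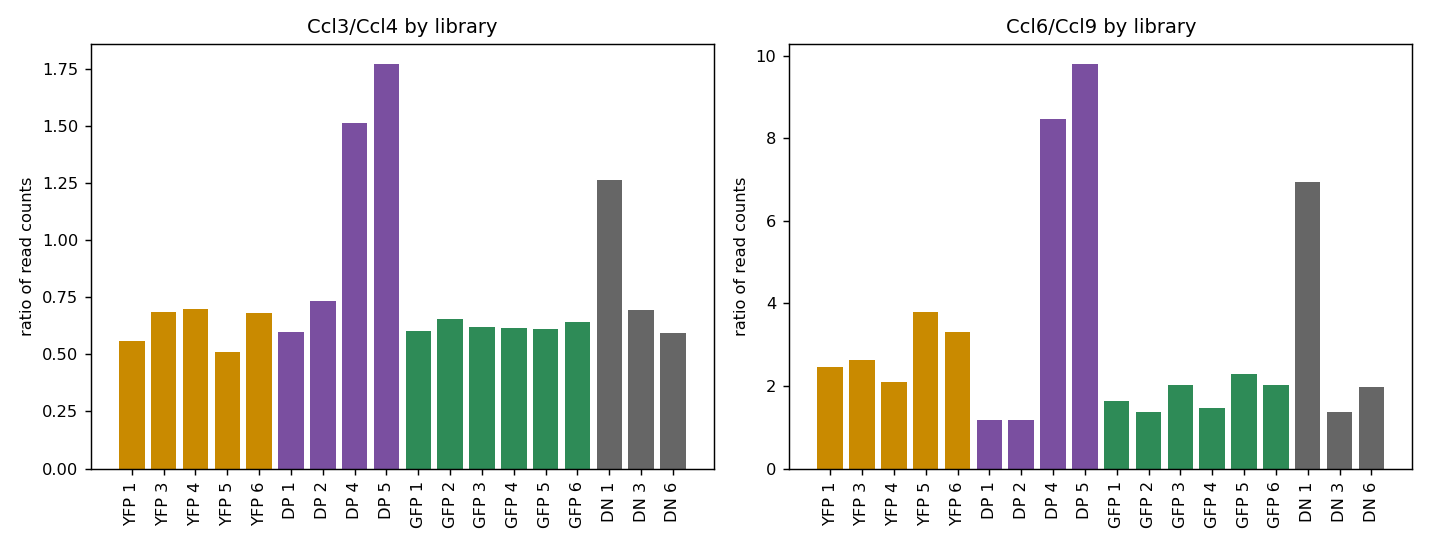
Ratio of read counts of Ccl3 to Ccl4 (left) and of Ccl6 to Ccl9 (right) in each library, coloured by sorted subset in the order YFP, DP, GFP, DN. DP 4, DP 5 and DN 1 stand above the other 15 libraries in both ratios.

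Ccl5, which T cells, NK cells and platelets supply in quantity and which binds Ccr1 and Ccr3, had 7.61, 72.7, 24.4, 21.0 and 5.97 CPM in YFP libraries. In DP it had 27.0, 22.2, 13.3 and 0 CPM, where 0 counts in the library labelled DP 5 allow up to 0.32 CPM (3 counts, counting error only). In GFP libraries it ran from 3.46 to 104 CPM with a median of 21.8 CPM, and DN had 223, 34.5 and 10.8 CPM. DN 1 and GFP 1 were the highest, followed by GFP 2 and YFP 3, and all subsets overlapped. The log2 fold change of YFP over GFP was -0.57 ± 0.96 (SE, edgeR adjusted p = 0.977). It was 0.61 with the replicate number as a block and 1.19 among libraries numbered 3 to 6. That of DP over DN was -2.52 ± 1.21 (adjusted p = 0.9998), and -0.58 without DN 1.

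Summed over 9 NK cell markers, DN 1 held 459 CPM, GFP 1 297 CPM and GFP 2 143 CPM, and the other 15 libraries 0.798 to 87.8 CPM. The T cell list (9 matched genes) was highest in DN 1 as well, at 1532 CPM. The library labelled DP 4 came next in the T cell list (371 CPM) and behind DN 1, GFP 1 and GFP 2 in the NK cell list (87.8 CPM), with 13.3 CPM of Ccl5. In YFP 3, with the fourth highest Ccl5, the NK cell list stood at 29.5 CPM and the T cell list at 48.5 CPM. Ncr1, which encodes the NK receptor NKp46, had 21.4, 5.60 and 4.64 CPM in DN 1, GFP 1 and GFP 2 and at most 0.49 CPM elsewhere, and was at 0 in DP 5, where 6 of the 9 NK markers were. The part of NK and T cell RNA in the Ccl5 levels was not tested.

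Ccl6 and Ccl9, ligands of Ccr1 known from the mouse that draw myeloid cells, were each highest in the library labelled DP 5. Ccl6 had 479, 1313, 1128, 10986 and 1391 CPM in YFP libraries and 147, 307, 2926 and 34656 CPM in DP. In GFP libraries it ran from 231 to 1403 CPM with a median of 701 CPM, and in DN it had 255, 471 and 804 CPM. YFP 1 and DP 1 and 2 lay within the GFP range or below it, and YFP 3, 4 and 6 in its upper part. YFP 5 and the libraries labelled DP 4 and DP 5 lay above all others. Without TMM, YFP 3 (1267 CPM) and YFP 6 (1612 CPM) lay above the highest GFP library, GFP 5 (1209 CPM).

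For Ccl6 the log2 fold change of YFP over GFP was 2.12 ± 0.97 (SE, edgeR adjusted p = 0.688). It kept its sign with each library left out, between 0.68 without YFP 5 and 2.90 without GFP 5. That of DP over GFP was 3.75 ± 1.06 (adjusted p = 0.145), and 0.92 without DP 5 and -1.30 without DP 4, DP 5, DN 3 and DN 6. That of DP over DN was 4.22 ± 1.44 (adjusted p = 0.9998), and -0.44 without those 4 libraries. Ccl6 passed the edgeR test in DP against GFP without DP 1 (4.16, 1.1% of genes called), without DP 2 (4.17, 1%) and without YFP 5 (4.54, 1.48%). Over the 4 subsets it passed without the same libraries (1.03%, 0.998% and 0.586% of genes called). It passed in DP against GFP also in libraries numbered 3 to 6 (4.34, adjusted p = 0.0273, 1.33% of genes called). There the DP group consisted of DP 4 and DP 5.

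Ccl9 had 195, 501, 538, 2897 and 421 CPM in YFP libraries and 125, 262, 346 and 3539 CPM in DP. GFP libraries ran from 141 to 614 CPM with a median of 402 CPM, and DN had 36.8, 342 and 407 CPM. Only YFP 5 and the library labelled DP 5 left the range of the GFP libraries upwards. YFP over GFP gave a log2 fold change of 1.29 ± 0.75 (SE, edgeR adjusted p = 0.816), and 0.21 without YFP 5. Reads of Ccl9 may be less certain, since 2% of the 50-base stretches of its transcript (59 of 2957) also occur in transcripts of other genes, against 0 for each of the other 9 ligands.

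The proportion of Ccl6 to Ccl9 differed between libraries as well. Their read ratio was 8.46 in the library labelled DP 4, 9.79 in that labelled DP 5 and 6.95 in DN 1, and 1.17 to 3.79 in the other 15 libraries. Ccl6 made up 60.3% of all reads of the 10 ligands in DP 4 (95% exact binomial interval 60.0% to 60.6%), 65.4% in DP 5 (65.3% to 65.5%) and 49.2% in YFP 5 (49.0% to 49.4%). It made up 29.4% in YFP 1 and 3.49% to 20.6% in the other 14 libraries. These intervals cover counting error only.

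**Figure D3:**
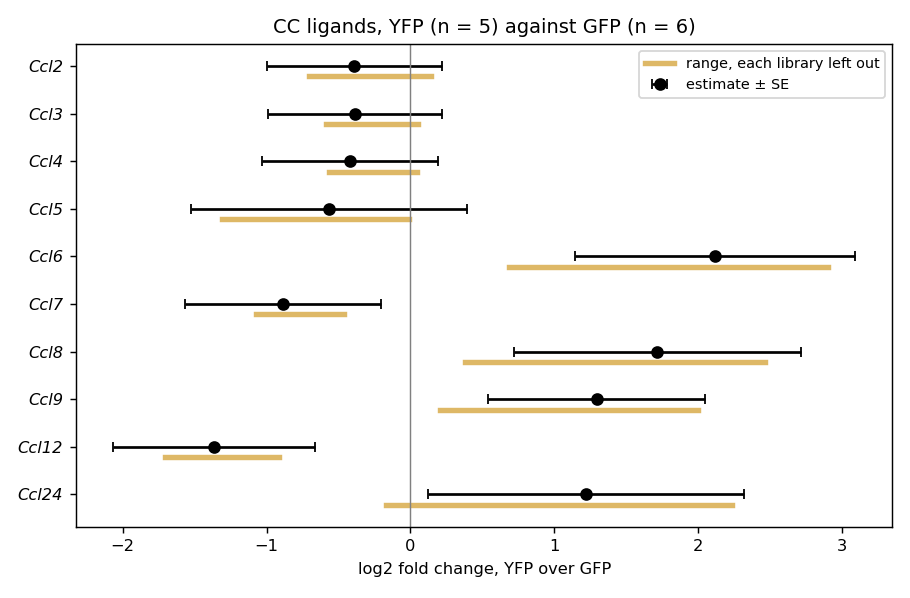
Log2 fold change of YFP (n = 5) over GFP (n = 6) for each ligand, as the edgeR estimate with its SE (points and bars) and as the range over fits that leave out each library (orange lines). Ccl6, Ccl8, Ccl9 and Ccl24 lie above 0 and the other 6 below, and the orange lines of Ccl2, Ccl3, Ccl4 and Ccl24 cross 0.

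Ccl24, or eotaxin-2, binds Ccr3 and draws eosinophils. It had 2.47, 29.1, 6.05, 141 and 29.9 CPM in YFP libraries and 1.08, 2.36, 38.0 and 642 CPM in DP. In GFP libraries it ran from 4.37 to 50.3 CPM with a median of 14.4 CPM, and DN had 1.97, 3.52 and 4.11 CPM. Every GFP library lay above every DN library, as in 0.636% of all tested genes, although the library labelled DN 6 came close to GFP 1. Means were 17.98 ± 16.7 CPM in GFP and 3.20 ± 1.11 CPM in DN (SD, n = 6 and 3), with a log2 fold change of 2.49 ± 1.46 (SE, edgeR adjusted p = 1).

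The log2 fold change of YFP over GFP was 1.22 ± 1.10 for Ccl24 (SE, edgeR adjusted p = 0.977), and -0.17 without YFP 5. Over DN, YFP stood at 3.72 ± 1.58 (adjusted p = 0.9999) and DP at 5.74 ± 1.78 (adjusted p = 0.9998). These were 2.20 without YFP 5 and 2.20 without DP 5. Without DP 4, DP 5, DN 3 and DN 6, which leaves DN 1 alone in DN, the log2 fold change of DP over DN was negative. That of DP over GFP was 3.25 ± 1.19 (adjusted p = 0.407), and -0.17 without DP 5. Among libraries numbered 1 and 2, Ccl24 was lower in DP than in GFP, by a log2 fold change of -2.56 (adjusted p = 0.0201, 1.33% of genes called). Among those numbered 3 to 6, with DP 4 and DP 5 as the DP libraries, it was 3.96 (adjusted p = 0.0918). The sign in DP against GFP was thus opposite in the 2 sets of replicate numbers.

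**Figure D4:**
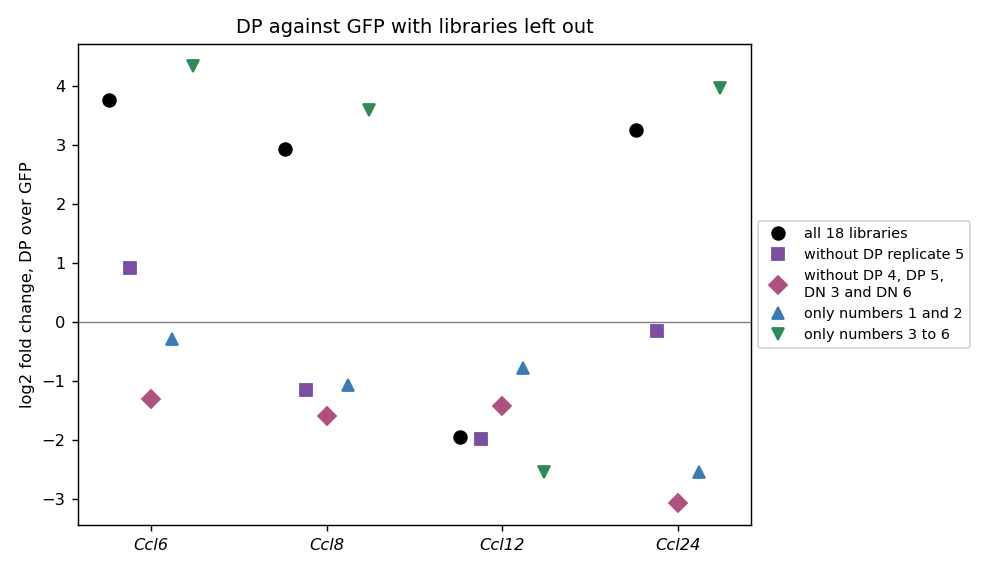
Log2 fold change of DP over GFP for the 4 ligands with an unadjusted p under 0.05 in that pair, from all 18 libraries and with libraries left out (marker shapes). Ccl6, Ccl8 and Ccl24 change sign, to -1.30, -1.61 and -3.07 without DP 4, DP 5, DN 3 and DN 6, and Ccl12 stays below 0.

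DP 5 and YFP 5 carried the highest levels of Ccl6, Ccl8, Ccl9 and Ccl24, and some of their marker lists were alike and others differed. With TMM scaling they were the 2 highest of all 18 libraries for pan-macrophage markers (79040 CPM in DP 5 and 130100 CPM in YFP 5), classical monocyte markers (6229 and 3053 CPM), dendritic cell markers (1818 and 1015 CPM) and erythroid and platelet markers (4093 and 1418 CPM). Their small TMM factors, 0.533 and 0.445, raised these sums. Without TMM they were the 2 highest for the erythroid and platelet markers only. Of the 10 genes of that list 8 were matched, without Hbb-bs and Hbb-bt. Hba-a1 and Hba-a2 had no reads in any library, so the sums rested on Alas2 and platelet genes. The library labelled DP 5 held 38900 CPM of neutrophil markers, 7548 CPM of eosinophil, basophil and mast cell markers, and 23330 CPM of resident vascular macrophage markers, of which YFP 5 held 10030 CPM. Within these lists Prg2 (eosinophil major basic protein) had 3374 CPM, Cpa3 (a mast cell protease) 2432 CPM and Folr2 3526 CPM, while Mcpt8 and Ms4a2 were at 0. YFP 5 held 129300 CPM of foamy or TREM2-high macrophage markers, the highest of all libraries, with 49940 CPM of Spp1 (osteopontin) and 11780 CPM of Gpnmb. In YFP 5 the neutrophil list stood at 459 CPM and the eosinophil, basophil and mast cell list at 7.88 CPM. The part of these cells in the ligand levels was not tested. Summed levels of the neutrophil list ran from 60.2 to 1036 CPM in YFP, from 29.2 to 38900 CPM in DP, from 32.5 to 324 CPM in GFP and from 81.1 to 1687 CPM in DN. Those of the eosinophil, basophil and mast cell list ran from 4.35 to 227 CPM in YFP, from 22.9 to 7548 CPM in DP, from 10.5 to 80.1 CPM in GFP and from 2.64 to 40.8 CPM in DN.

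Over all tested genes, the median log2 fold change of YFP over GFP was 0.04, with 51.7% of genes higher. That of the 10 ligands was -0.39, with 4 higher and 6 lower. The other 5 pairs gave medians of -0.20 for the ligands beside -0.09 for all genes (YFP over DP), 0.29 beside 0.06 (YFP over DN), -0.31 beside 0.20 (DP over GFP), 0.43 beside 0.21 (DP over DN) and 0.54 beside 0.04 (GFP over DN). In GFP over DN, 9 of the 10 ligands had a positive value and Ccl5 a negative one, with none passing the test. DN 1, which held few macrophage markers, had the lowest level of the 18 libraries for Ccl2, Ccl7 and Ccl9, and with TMM also for Ccl12.

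Levels of 9 of the ligands were positively correlated with each other over 17 libraries (without the shallow YFP 6), but some pairs only weakly. Spearman's rho of log2(CPM + 1) was 0.926 for Ccl3 with Ccl4, 0.924 for Ccl2 with Ccl7 and 0.904 for Ccl6 with Ccl9. Without DP 5 and YFP 5 (15 libraries) these were 0.968, 0.979 and 0.861, and among libraries numbered 3 to 6 (11 libraries) 0.764, 0.718 and 0.736. They were the 3 most alike pairs only over the 17 libraries. Without DP 5 and YFP 5, Ccl2 with Ccl12 (0.939) and Ccl7 with Ccl12 (0.918) exceeded Ccl6 with Ccl9, and among numbers 3 to 6, Ccl6 with Ccl24 (0.918) and Ccl8 with Ccl9 (0.8) exceeded all 3. Ccl12 went with Ccl2 (rho 0.833). Ccl8 and Ccl24 went with the Ccl6 and Ccl9 pair, with rho of 0.868 for Ccl8 with Ccl9 and 0.875 for Ccl6 with Ccl24. These were no separate sets, since rho of 0.789 for Ccl3 with Ccl7, 0.782 for Ccl2 with Ccl9 and 0.775 for Ccl2 with Ccl4 was about as high as the 0.784 for Ccl7 with Ccl12 and above the 0.743 for Ccl8 with Ccl24. Leaving Ccl5 aside, the lowest rho was 0.208, for Ccl6 with Ccl12, and among numbers 3 to 6 this pair had -0.427. There Ccl12 with Ccl24 (-0.136), Ccl4 with Ccl6 (-0.0818), Ccl6 with Ccl7 (-0.0545) and Ccl9 with Ccl12 (-0.0455) were also below 0. Ccl5 had a negative rho with each of the other 9 over the 17 libraries, from -0.596 with Ccl8 to -0.0098 with Ccl4. The sign of Ccl5 with Ccl4 and with Ccl3 was not stable. These were 0.046 and 0.036 without DP 5 and YFP 5, and 0.364 and 0.127 among numbers 3 to 6. Libraries share depth and scaling, so these values are descriptions.

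**Figure D5:**
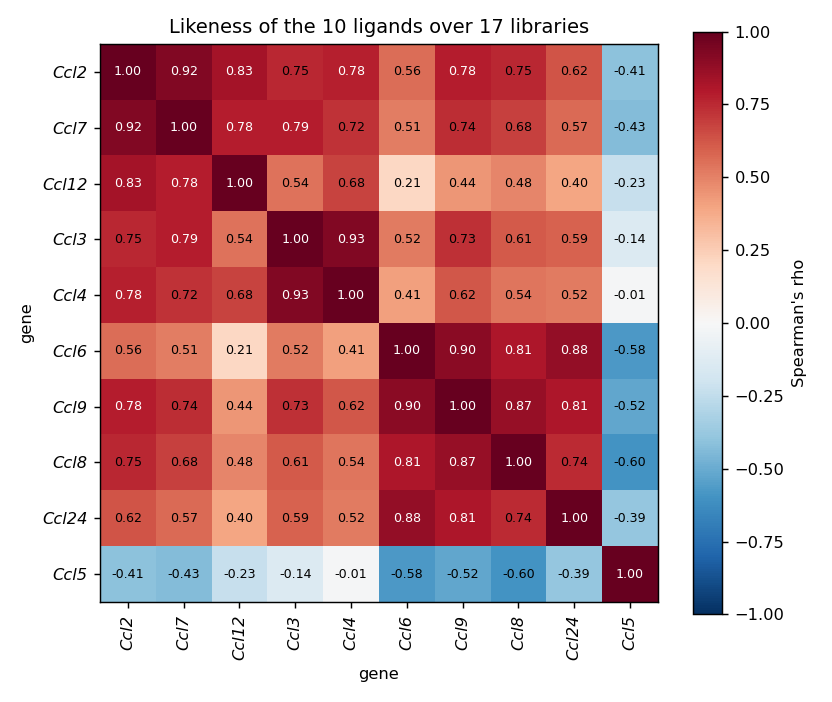
Spearman's rho of log2(CPM + 1) between each pair of the 10 ligands over 17 libraries (colour scale from -1 to 1, value printed in each cell). The highest values are those of Ccl3 with Ccl4 (0.93), Ccl2 with Ccl7 (0.92) and Ccl6 with Ccl9 (0.90), many other pairs lie above 0.7, and Ccl5 is negative with all.

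Outside the set, among 9655 genes, the gene most like Ccl3 and Ccl4 was Cxcl2, a chemokine for neutrophils (rho 0.949 and 0.870), and Ccl3 was also like the cytokine gene Il1b (0.855). Stap1 (0.865) stood between these for Ccl3, and Marcks (0.831) and Trex1 (0.828) followed for Ccl4. Ccl2 was most like Clec4a3, a C-type lectin receptor gene (0.968), H3f3b and Trf (both 0.951), and Ccl12 like Trf (0.914), Lilra5 (0.895) and Zfand5 (0.887). Ccl7 was most like Clec7a, which encodes the beta-glucan receptor dectin-1 (0.971), Ctsc (0.966) and Ifi204 (0.939). Ccl6 was most like Mgst1, a microsomal glutathione transferase gene (0.983), Tmem126b (0.961) and Arpp19 (0.936). Ccl9 was most like Tmed5 (0.963), Fkbp1a (0.961) and Ptplad2 (0.956), and Ccl8 like Mcts1 (0.919), Il18 and Naa20 (both 0.917). Ccl24 was most like Ltc4s, which encodes leukotriene C4 synthase (0.941), Selenbp1 (0.939) and Cbr2 (0.929), a gene of the resident vascular macrophage list. Ccl5 was most like Rod1 (0.841), Baz2a and Snrnp200 (both 0.838). These are correlations over 17 libraries.

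Summed levels of marker lists varied with the ligands too. The list of genes induced by tissue dissociation ran from 26060 to 42550 CPM in YFP, from 31970 to 45150 CPM in DP, from 35710 to 53820 CPM in GFP and from 19450 to 39990 CPM in DN. Its rho over 17 libraries was 0.895 with Ccl2, 0.885 with Ccl7 and 0.882 with Ccl12. Other lists were nearly as like Ccl2, with a rho of 0.875 for pan-macrophage markers, 0.841 for CC receptors and 0.816 for resident vascular macrophage markers. In YFP over GFP its 24 genes had a median log2 fold change of -0.36, with 6 higher, 18 lower and none passing the test. The list of NF-kB feedback genes and inflammatory cytokines had a rho of 0.858 with Ccl3 and 0.804 with Ccl4. The CC receptor list was nearly as like these ligands, with 0.853 and 0.76. Ccrl2 made up much of the CC receptor sum in GFP 5 (1762 of 2281 CPM) and less in YFP 1 (225 of 801 CPM). The rho values of this list therefore do not describe each receptor. In YFP over GFP the 16 genes of the NF-kB list had a median log2 fold change of -0.35, with 3 higher and 13 lower. Ccl24 had a rho of 0.846 with the resident vascular macrophage list and a higher one, 0.968, with the erythroid and platelet list. Pf4 is in both lists, and no hemoglobin gene of the erythroid and platelet list had reads. The erythroid and platelet list also had a rho of 0.855 with Ccl6, 0.85 with Ccl8 and 0.855 with Ccl9. The part of dissociation in the ligand levels was not tested.

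Of 13 other CC ligand genes in the table, 7 were tested and none passed in any pair. Ccl19, a ligand of Ccr7 that guides dendritic cells and T cells to lymph nodes, averaged 84.4 ± 104 CPM in YFP, 94.0 ± 123 CPM in DP, 11.1 ± 5.35 CPM in GFP and 46.7 ± 17.2 CPM in DN (SD, n = 5, 4, 6 and 3). Its highest levels were in YFP 1 (266 CPM) and the library labelled DP 4 (278 CPM), and every YFP library stood above every GFP library, as in 0.251% of all tested genes. Without TMM this did not hold, as YFP 3 (17.97 CPM) lay below GFP 2 (18.9 CPM). The log2 fold change of YFP over GFP was 2.94 ± 0.74 (SE, edgeR adjusted p = 0.170) and that of DP over GFP 3.09 ± 0.77 (adjusted p = 0.0799). YFP 1 and DP 4 were also the libraries with the most fibroblast marker RNA, 10880 and 12050 CPM, beside 246 to 1076 CPM in GFP libraries, and its part was not tested. Ccl22, a ligand of Ccr4 made by macrophages and dendritic cells, averaged 79.2 ± 83.4 CPM in YFP, 54.7 ± 59.3 CPM in DP, 29.8 ± 21.1 CPM in GFP and 36.3 ± 40.9 CPM in DN. The remaining tested ligands stayed under 20 CPM in every subset mean.

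Of the 12 CC receptor genes tested, 1 passed. Ccr3, the receptor of eotaxins on eosinophils, rose in DP against GFP, with 1.5, 2.20, 268 and 309 CPM in DP and 2.05 to 5.97 CPM in GFP (log2 fold change of 5.06 ± 1.01, SE, edgeR adjusted p = 0.0404, and adjusted p = 0.0277 over the 4 subsets). The libraries labelled DP 4 and DP 5 carried this, while DP 1 lay below the GFP range and DP 2 within it. Without DP 4, DP 5, DN 3 and DN 6, the log2 fold change was -0.96. With each library left out, the call in DP against GFP held in 10 of 18 fits and was lost without DP 4, without DP 5 and without each of the 6 GFP libraries (adjusted p up to 0.244). It was also lost with limma voom (adjusted p = 0.692), with the pair fitted alone (adjusted p = 0.169) and in the fit with a replicate block (adjusted p = 0.929). Ccr2 averaged 249 ± 164 CPM in YFP, 126 ± 37.6 CPM in DP, 238 ± 117 CPM in GFP and 227 ± 164 CPM in DN (SD, n = 5, 4, 6 and 3). Ccr1, which binds Ccl3, Ccl5, Ccl6, Ccl7 and Ccl9, averaged 204 ± 82.7 CPM in YFP, 342 ± 411 CPM in DP, 229 ± 90.3 CPM in GFP and 128 ± 31.2 CPM in DN, with 933 CPM in the library labelled DP 5. Ccr7 averaged 162 ± 126 CPM in YFP, 176 ± 192 CPM in DP, 72.1 ± 72.7 CPM in GFP and 203 ± 228 CPM in DN. Ccrl2, which binds chemerin without signalling, had means of 1206 to 1471 CPM, and Ccr8 exceeded 6 CPM only in DN 1 (119 CPM) and the library labelled DP 4 (37.1 CPM).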

How the data were processed

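RNA of sorted cells was amplified with SMART-seq v4 (11 cycles), made into libraries with Nextera XT and sequenced on a HiSeq4000, per the labels' protocols. TopHat 1.4.1, SAMtools, HTSeq 0.7.1 and the build mm10 were used, per the submitters' processing notes. Which annotation and strand setting the counting used is not given in the sources used here. Overlapping and antisense genes may therefore share reads. What the authors deposited is 1 table of raw counts in whole numbers, for 23337 symbols in 18 libraries, and it was used as it stands. No row lacked a gene name. Reads carry no molecular identifiers.

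Groups are the sorted subsets, as labelled. The test was that of edgeR 4.0.16 under R 4.3.3 (filterByExpr by subset, TMM, robust quasi-likelihood fit with 1 mean per subset over all 18 libraries, common dispersion 0.890), over the 4 subsets and in 6 pairs, with Benjamini-Hochberg adjustment over 17143 genes and a threshold of 0.05. SE came from the log2 fold change and its F statistic. CPM are counts scaled to a TMM-normalized library size of 1e6, and RPKM divide them by the exon length of each gene in GENCODE vM21 (mm10). Other settings were DESeq2 1.42.0, limma 3.58.1 (voom), another scaling, no filter on low counts, the pair alone, the replicate number as a block, each library left out, the libraries numbered 1 and 2 or 3 to 6, and leaving out the 4 libraries of DP and DN whose reporter genes went against their labels, then YFP 6 with them (added after seeing the data). The tests were checked on simulated counts.

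The members, gene lists, tests and settings were chosen with earlier results of these data known. All 10 ligands are named. Fold changes are given for YFP against GFP and, in other pairs, for members whose p before adjustment was under 0.05. The GFP against DN value of Ccl24 was added after its levels were seen. Likest genes are the 3 with the highest rho among genes of at least 5 CPM on average. Of other CC ligands and receptors, those reaching 20 CPM in a subset mean are named, but 1 gene that meets this rule is not reported here. Marker genes were picked by list order, but Folr2, Prg2 and Cpa3, and Ncr1, Spp1 and Gpnmb, were singled out of the first 4 of their lists after their values were seen. Replicates were compared by a chi-square test of their counts, and the most alike pair still had 16.66 per degree of freedom, so none counts as a duplicate. Same-numbered libraries deviated together beyond a correlation of 0.1 for every number in some pairs. These were YFP and DP (0.164 to 0.342), DP and GFP (0.164 to 0.416) and GFP and DN (0.570 to 0.673). YFP and GFP had 0.51, 0.478, 0.514 and 0.41 for numbers 1, 3, 4 and 5, and -0.019 for number 6, with the shallow YFP 6. YFP and DN had 0.487, 0.449 and -0.0932 for numbers 1, 3 and 6, and DP and DN -0.221 for number 1. Differently numbered libraries were not compared in this way, so these correlations have no baseline. The labels do not say what the number marks.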

Additional observations from a re-analysis of the deposited data

Results flagged for a closer look

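Of 30 groups of 4 to 6 libraries tested for a library far from the rest of its subset (Dixon's test at 95%), 11 held such a library, each on the high side. For normally distributed values, chance gives about 1 in 20 groups. The test was run on CPM and not on their logarithms, and the shape of their distribution was not tested. The 11 of 30 groups are therefore not compared with that rate. The groups are not independent, since 5 of the 11 are DP 5 and 4 are YFP 5, and the library labelled DP 5 is 1 of the libraries that went against their labels.

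In DP 5 these were Ccl6 at 34656 CPM (next highest DP library 2926 CPM), Ccl9 at 3539 CPM (next 346 CPM), Ccl8 at 3198 CPM (next 65.9 CPM), Ccl7 at 2274 CPM (next 357 CPM) and Ccl24 at 642 CPM (next 38.0 CPM). In YFP 5 they were Ccl6 at 10986 CPM (next highest YFP library 1391 CPM), Ccl9 at 2897 CPM (next 538 CPM), Ccl8 at 1255 CPM (next 209 CPM) and Ccl24 at 141 CPM (next 29.9 CPM). Ccl5 stood apart in YFP 3, at 72.7 CPM (next 24.4 CPM), and Ccl24 in GFP 5, at 50.3 CPM (next 17.5 CPM). DP 5 and YFP 5 also had the smallest TMM factors, 0.533 and 0.445. With library sizes not scaled by TMM, Ccl6, Ccl8, Ccl9 and Ccl24 were still highest in DP 5 and next in YFP 5, with Ccl6 at 18458 CPM in DP 5 and 4886 CPM in YFP 5. Ccl7 in DP 5 (1211 CPM) was then no longer the highest of all libraries, being below GFP 3 (1956 CPM), GFP 4 (1639 CPM) and GFP 5 (1508 CPM).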

How the results depend on the processing

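No ligand was called in any comparison with another scaling (RLE), limma voom, no filter on low counts, the pair alone, the replicate number as a block, or without DP 4, DP 5, DN 3 and DN 6, with YFP 6 kept or left out. With DESeq2, 1 ligand (Ccl6) was called in DP against GFP, in DP against DN and over the 4 subsets. Among libraries numbered 1 and 2, where YFP 1 and DN 1 stand alone and a call sets 1 library against others, the calls were 5 in YFP against DP, 4 in YFP against GFP, 6 in YFP against DN, 2 in DP against GFP, 7 in DP against DN, 8 in GFP against DN and 9 over the 4 subsets. Among those numbered 3 to 6, 1 ligand (Ccl6) was called in DP against GFP and over the 4 subsets. With each library left out, the count was 0 to 1 in DP against GFP and over the 4 subsets, and 0 in the other 5 pairs. The cause of these differences was not tested.

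Calls over all genes also moved, with 351 in DP against GFP by DESeq2, 92 with RLE and 0 with limma voom, against 34 by edgeR, and with 181 in YFP against GFP by DESeq2 against 0. Signs turned as follows, as log2 fold changes. Ccl24 in YFP over GFP was -0.0027 with limma voom and -1.91 among numbers 1 and 2. Ccl5 in YFP over GFP was 0.61 with the replicate block and 1.19 among numbers 3 to 6. With the replicate block, DP over GFP of Ccl6 was 1.52, and the genes called in that pair numbered 0, against 34 without it; the block changed no call of a ligand. Without DP 4, DP 5, DN 3 and DN 6, DP over GFP was -1.30 for Ccl6, -1.61 for Ccl8 and -3.07 for Ccl24, and DP over DN, with DN 1 as the sole DN library, -0.44 for Ccl6 and -0.46 for Ccl24. Without YFP 6 as well, chosen after seeing the data, these were -1.65, -1.92 and -3.39, and -0.16 and -0.18. Among numbers 1 and 2, DP over GFP was -0.29 for Ccl6, -1.07 for Ccl8 and -2.56 for Ccl24, and DP over DN -0.34 for Ccl6 and -0.35 for Ccl24. With each library left out, YFP over GFP ran from -0.71 to 0.14 for Ccl2, from -0.58 to 0.051 for Ccl3, from -0.56 to 0.048 for Ccl4 and from -0.17 to 2.24 for Ccl24. DP over GFP ran from -1.16 to 3.93 for Ccl8 and from -0.17 to 4.59 for Ccl24, and DP over DN from -0.84 to 4.05 for Ccl8. The cause was not tested in any of these.

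YFP 6, with 289166 counts, has a floor of 8.96 CPM (3 counts), so its 5.97 CPM of Ccl5 rests on 2 reads.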
